A study of Mus musculus with 9 samples.

Results

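The ISG15 system and a set of antiviral effectors, 10 genes in all, were followed in mouse neural stem cells after deletion of Smchd1. They were taken by symbol from a table of 25965 genes, and all 10 were found: Isg15, Usp18, Uba7, Ube2l6, Herc6, Ifit1, Ifit2, Ifit3, Rsad2 and Bst2. They were chosen by their differences between del/del and fl/fl cultures in an earlier analysis of these libraries. Values of that contrast are therefore a description of the 10 genes; counts past a threshold are printed beside the share over all genes, and nothing is read from them.

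Neural stem cells are self-renewing cells of the developing brain, and Smchd1 encodes a chromatin protein with roles in X inactivation and in silencing of some gene clusters. Lines were derived from C57BL/6 embryos (E14.5) that carried floxed Smchd1 alleles (fl/fl), and each established line was divided into a pair of cultures. The fl/fl cultures stayed untransduced, with 3 female libraries (lines 1 to 3) and 2 male libraries (lines 5 and 7). The del/del cultures received the retrovirus MSCV-Cre-puro, which carries Cre recombinase and puromycin resistance, were given puromycin from 24 h, and were harvested on day 7, with 3 female libraries (lines 1 to 3) and 1 male library (line 5). Loss of Smchd1 cannot be told apart here from retrovirus and puromycin, which were given to the del/del cultures alone. The comparison addresses how expression changes when Smchd1 is deleted from established lines.

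Interferons bind receptors that signal through Jak kinases to a complex that includes Stat2 and Irf9, and this complex binds the interferon-stimulated response element (ISRE) near its target genes. Among the targets, Isg15 encodes a ubiquitin-like protein that is attached to other proteins by an activating enzyme (Uba7), a conjugating enzyme (Ube2l6) and a ligase (Herc6 in mice), and is removed by the protease Usp18, which also dampens signalling at the interferon receptor. Ifit proteins bind foreign RNA ends, Rsad2 (viperin) makes a chain-terminating nucleotide, and Bst2 (tetherin) holds budding virus particles at the cell surface.

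The promoters are shown first, since the 10 genes are known as interferon targets and their ISRE matches can be set beside the measured values. RefSeq windows (GRCm38.p6, the assembly of mm10) that run from 250 bases before to 50 bases after the gene start were found for 9 of the 10 genes; Usp18 was not matched. The ISRE core was searched as GAAA, 2 bases of any kind and GAAA, on both strands, with overlapping matches counted. It was present in 5 of the 9 genes, against 3.99% of all 27025 genes with a window (3.44% of all 32851 promoter windows). The 250 bases upstream of the start are printed for these 5 and for Ifit2, the Ifit neighbour without a match; letters in capitals mark ISRE core matches, which read TTTC, 2 bases and TTTC where the match lies on the other strand.
Isg15, chr4:156200819-156201068, minus strand: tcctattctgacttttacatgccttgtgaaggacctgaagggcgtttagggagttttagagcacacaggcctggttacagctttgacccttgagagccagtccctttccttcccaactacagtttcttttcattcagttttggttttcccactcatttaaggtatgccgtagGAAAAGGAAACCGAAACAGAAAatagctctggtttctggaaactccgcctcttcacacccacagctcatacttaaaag
Ifit1, chr19:34640639-34640888, plus strand: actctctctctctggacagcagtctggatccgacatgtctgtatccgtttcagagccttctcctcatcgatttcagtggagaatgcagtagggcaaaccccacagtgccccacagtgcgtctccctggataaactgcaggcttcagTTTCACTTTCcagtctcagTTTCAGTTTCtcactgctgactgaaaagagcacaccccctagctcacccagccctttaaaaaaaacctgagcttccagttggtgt
Ifit3, chr19:34583279-34583528, plus strand: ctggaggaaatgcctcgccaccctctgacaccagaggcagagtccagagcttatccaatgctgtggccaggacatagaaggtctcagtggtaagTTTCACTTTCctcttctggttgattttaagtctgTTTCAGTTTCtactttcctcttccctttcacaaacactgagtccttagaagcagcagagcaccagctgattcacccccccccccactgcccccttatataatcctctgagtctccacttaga
Rsad2, chr12:26456453-26456702, minus strand: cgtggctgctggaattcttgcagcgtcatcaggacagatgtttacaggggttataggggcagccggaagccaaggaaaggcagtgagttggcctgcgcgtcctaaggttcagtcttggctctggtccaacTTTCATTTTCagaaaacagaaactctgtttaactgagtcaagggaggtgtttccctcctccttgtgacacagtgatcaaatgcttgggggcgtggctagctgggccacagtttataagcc
Bst2, chr8:71537473-71537722, minus strand: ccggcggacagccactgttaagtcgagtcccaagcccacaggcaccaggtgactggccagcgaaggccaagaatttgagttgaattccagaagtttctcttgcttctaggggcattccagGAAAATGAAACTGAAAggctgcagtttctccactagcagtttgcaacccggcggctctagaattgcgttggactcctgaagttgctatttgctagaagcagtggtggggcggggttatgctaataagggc
Ifit2, chr19:34550444-34550693, plus strand: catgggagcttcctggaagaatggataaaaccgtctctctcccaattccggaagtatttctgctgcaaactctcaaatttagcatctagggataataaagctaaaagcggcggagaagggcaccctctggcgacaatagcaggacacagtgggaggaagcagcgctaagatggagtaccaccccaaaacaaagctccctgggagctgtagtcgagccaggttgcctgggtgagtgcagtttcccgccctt

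Isg15 held 3 overlapping matches that together cover 22 bases, from -78 to -57 relative to the start. Ifit1 held 2 separate matches (from -104 and from -85), Ifit3 held 2 (from -156 and from -122), Bst2 held 2 overlapping ones (from -130 and from -124), and Rsad2 held 1 (from -120). Windows with 2 or more matches made up 0.225% of all promoter windows. Uba7, Ube2l6, Herc6 and both listed starts of Ifit2 had none in these windows. Only exact matches were counted. Stretches 1 base off the core were not searched for, and the Uba7 window holds such a stretch, TTTCACTTTT. The GAS motif TTCNNNGAA, another interferon-response element, was present in Bst2, where it overlaps an ISRE match, and in Ifit2. Of all genes with a window 9.55% held it (8.30% of all windows). A match is a stretch of letters and not a measured binding site.

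**Figure D1:**
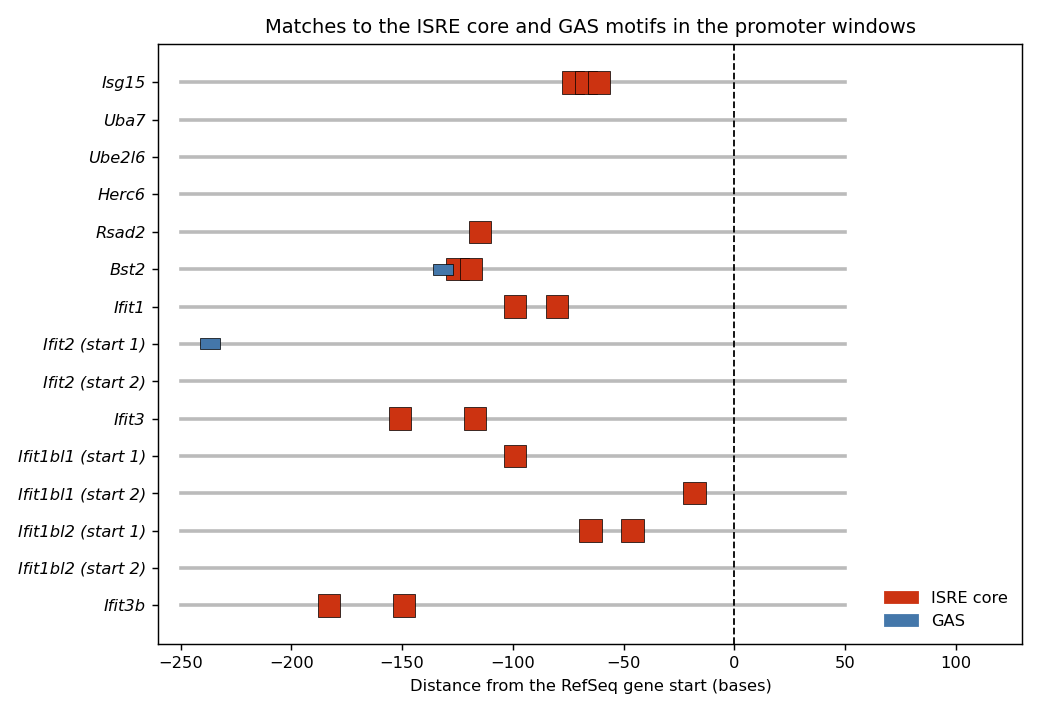
Positions of ISRE core matches (red) and GAS matches (blue) in the promoter windows of 9 of the genes and of the 3 Ifit paralogs; the x axis is the distance in bases from the RefSeq gene start, and the dashed line marks the start. Matches lie upstream of the start in Isg15, Rsad2, Bst2, Ifit1 and Ifit3, and Uba7, Ube2l6 and Herc6 have none.

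Levels are the authors' deposited log2 RPM, the reads of a gene scaled to the total reads of the library, and RPM below means the same value without the logarithm. Libraries held 24.1 M to 116.6 M reads. Female fl/fl 2 was the shallowest, and the next held 74.0 M reads. In female fl/fl 2, 53.3% of reads lay in gene rows, against 34.8% to 44.4% in the other libraries. Its median log2 RPM over the genes fitted below was 4.46, against 4.10 to 4.38 in the others. The RPM values below are not adjusted for this difference. Smchd1 RNA lay at 5.04 to 5.36 log2 RPM in del/del and 6.16 to 6.81 log2 RPM in fl/fl libraries. Neural stem cell markers were high in every library, with Nes at 7.21 to 8.45, Slc1a3 at 6.79 to 8.03 and Vim at 6.51 to 8.02 log2 RPM. In such bulk RNA, fewer cells of a type and less RNA per cell cannot be told apart. Genes with a log2 RPM of at least 0 in at least 3 libraries entered the fits (14044), and 8 of the 10 genes did; Usp18, Isg15 and Ifit1 passed this filter through the del/del libraries alone, while Ifit3 and Uba7 stayed below it.

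Isg15 (chromosome 4, 156199424 to 156200818, mm10), the modifier itself, was higher in every del/del library than in any fl/fl library. It stood at 1.15, 1.11 and 1.13 RPM in female del/del 1, 2 and 3 and at 2.05 RPM in male del/del 5. The fl/fl values were 0.557, 0.124 and 0.337 RPM in females 1, 2 and 3 and 0.381 and 0.425 RPM in males 5 and 7. The 3 female del/del libraries were close to each other and male del/del 5 stood above them, while female fl/fl 2, with 3 reads of Isg15, stood below the other controls. The mean was 0.39 ± 0.43 log2 RPM (SD, n = 4) in del/del and -1.61 ± 0.83 log2 RPM (SD, n = 5) in fl/fl. The fitted log2 fold change was 2.10 (SE 0.46), a 4.28-fold difference, and 1.73 without female fl/fl 2.

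Usp18 (chromosome 6, 121245906 to 121270916), the protease that removes ISG15, showed the larger difference of the pair. Its del/del values were 2.08, 2.43 and 3.31 RPM in females 1, 2 and 3 and 4.85 RPM in male 5. Its fl/fl values were 0.797, 0.415 and 0.301 RPM in females and 0.734 and 0.329 RPM in males 5 and 7. The groups did not overlap, and male del/del 5 was again the highest library. The log2 fold change was 2.72 (SE 0.39), or 6.60-fold, from 10 to 93 reads per fl/fl library to 154 to 494 reads per del/del library.

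Of the 3 enzymes that attach ISG15, Ube2l6 and Herc6 did not differ by this much, and Uba7 was too scarce to read. Uba7 (chromosome 9, 107975505 to 107984060), the activating enzyme, was barely detected, with 3, 24 and 13 reads in female del/del 1, 2 and 3 and 15 in male del/del 5. In fl/fl it had 39, 0 and 16 reads in females 1, 2 and 3 and 6 and 12 in males 5 and 7. The order of the cultures differed between lines: in line 1 the fl/fl culture had more reads than the del/del culture, and in line 2 it had none at a depth at which 0 reads allow up to 0.124 RPM (3 reads; counting error only). The row also overlaps those of Cdhr4 and Gm20661, which can share its reads, so no fold is given.

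Ube2l6 (chromosome 2, 84798828 to 84810335), the conjugating enzyme, stood at 3.89 to 4.96 RPM in del/del and 3.69 to 4.69 RPM in fl/fl libraries. The ranges overlap almost completely, and the log2 fold change was 0.08 (SE 0.13), with -0.045 under quantile normalization. Herc6 (chromosome 6, 57580992 to 57665136), the ligase, stood at 8.57 to 10.9 RPM in del/del and 6.24 to 9.76 RPM in fl/fl, with a log2 fold change of 0.34 (SE 0.14) and overlapping groups. Thus the modifier and its protease differed by several-fold between the cultures, while the conjugating enzyme and the ligase differed by 1.06-fold and 1.26-fold.

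The 3 Ifit genes lie in 1 cluster on chromosome 19, with the paralogs named below between Ifit3 and Ifit1, and all were higher in del/del, by different amounts. Ifit1 (34640871 to 34650009) stood at 1.58, 1.66 and 1.75 RPM in female del/del 1, 2 and 3 and 1.80 RPM in male del/del 5. In fl/fl it stood at 0.592, 0.373 and 0.374 RPM in females 1, 2 and 3 and 0.391 and 0.295 RPM in males 5 and 7. The del/del libraries were tightly grouped (SD 0.082 log2, n = 4; 0.37 in fl/fl, n = 5), and the log2 fold change was 2.08 (SE 0.31), or 4.22-fold.

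Ifit3 (34583531 to 34588731) was much scarcer. It had 0.432, 0.609 and 0.687 RPM in female and 0.893 RPM in male del/del libraries, and 0.154, 0.0829 and 0.0638 RPM in female and 0.0953 and 0.139 RPM in male fl/fl libraries. That is 32 to 91 reads against 2 to 18 reads per library, again without overlap of the groups, and a log2 fold change of 2.71 (SE 0.42) in the fit without a filter on low values. Its transcripts share 51.2% of their 50-base words with those of the paralog Ifit3b, so part of its reads cannot be placed with certainty.

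Ifit2 (34550694 to 34576419) moved least of the 3. Its values were 5.38, 5.42 and 4.92 RPM in female and 5.64 RPM in male del/del libraries, and 3.48, 3.90 and 3.37 RPM in female and 3.32 and 3.68 RPM in male fl/fl libraries. The groups did not overlap and the spread within them was small (SD 0.083 log2 in del/del, n = 4, and 0.096 in fl/fl, n = 5). The log2 fold change was 0.59 (SE 0.11), or 1.51-fold.

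The Ifit cluster holds 3 further paralogs, listed in the table under older symbols and all below the filter. Ifit3b (I830012O16Rik) had 4 to 39 reads per del/del library and 0 to 3 reads per fl/fl library; the 0 reads of the shallow female fl/fl 2 allow up to 0.124 RPM, so whether the groups overlap cannot be read there. Ifit1bl2 (2010002M12Rik) had 2 to 14 reads against 0 to 9, and Ifit1bl1 (Gm14446) 8 to 14 reads against 0 to 17, with overlapping groups. Ifit1 and Ifit1bl2 start close to each other on opposite strands, and both ISRE core matches of Ifit1 printed above are also the 2 matches of the first Ifit1bl2 start.

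Rsad2 (chromosome 12, 26442753 to 26456452) was higher in del/del by 3.37-fold. It stood at 5.34, 5.59 and 5.95 RPM in female del/del 1, 2 and 3 and 9.28 RPM in male del/del 5. The fl/fl values were 2.67, 1.87 and 1.63 RPM in females 1, 2 and 3 and 2.15 and 1.53 RPM in males 5 and 7. Male del/del 5 was the highest library and every del/del library exceeded every fl/fl library; the log2 fold change was 1.75 (SE 0.22). Bst2 (chromosome 8, 71534264 to 71537437), whose promoter holds 2 ISRE core matches, stood at 7.70 to 10.97 RPM in del/del and 6.08 to 8.37 RPM in fl/fl. Its groups overlapped, since female fl/fl 1 exceeded female del/del 2, and the log2 fold change was 0.43 (SE 0.14), or 1.35-fold.

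**Figure D2:**
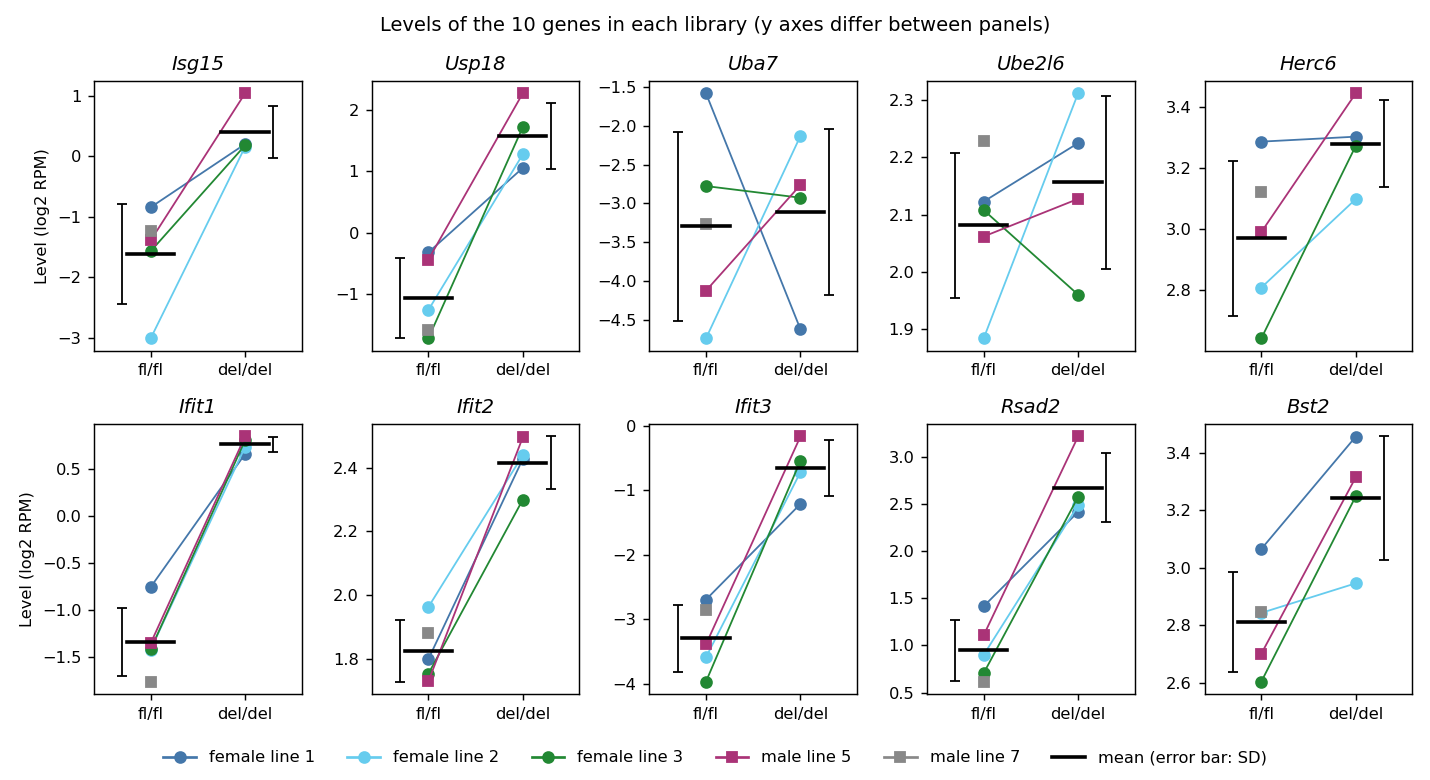
Levels of the 10 genes in log2 RPM (y axes differ between panels) in fl/fl and del/del libraries; colours mark lines, circles females and squares males, thin lines join cultures of 1 line, and black bars give the mean with the SD beside it. The groups are apart in Isg15, Usp18, Ifit1, Ifit2, Ifit3 and Rsad2 and overlap in Uba7, Ube2l6, Herc6 and Bst2.

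In 6 of the 10 genes every del/del library lay above every fl/fl library, 5 of them among the 8 that passed the filter; of all genes that passed, 5.53% behaved so and 0.990% lay the other way, and without the filter 4.17% of all genes lay above. By limma with Benjamini-Hochberg adjustment over all genes, 4 of the 10 (Usp18, Rsad2, Ifit1 and Ifit2) were past 0.05, against 1.45% of all genes for higher calls and 0.0997% for lower ones. Of the 10 genes, 5 were past 0.05 in the fit without a filter (all genes 1.07%), 5 with the line as a block (3.77%) and 5 with voom (1.77%). Over the 8 genes the median log2 fold change was 1.17, against -0.00 over all 14044 genes. The number past 0.05 was 0 when male del/del 5 was left out (5 at an unadjusted p under 0.05), 2 when female del/del 2 was, and 1 (Rsad2) with quantile normalization, and with log2(RPM + 1) the median was 0.65. Calls fell over the whole table in these settings: of 14044 genes, 203 were called higher with all libraries, 2 without male del/del 5, 50 without female del/del 2 and 86 with quantile normalization.

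Set beside the promoters, the 5 genes with an ISRE core match had log2 fold changes from 0.43 (Bst2) to 2.71 (Ifit3). Of the 4 without a match, Ube2l6, Herc6 and Ifit2 had 0.08, 0.34 and 0.59, and no fold is given for Uba7. The split is a description of 9 genes and was not tested. Of all genes that passed the filter and had a promoter window, 14 of 340 with at least 1 match rose after deletion (4.12%). Without a match 119 of 9162 did (1.30%). Ifit1 and Rsad2, counted among the 14, were chosen by this same contrast, and Ifit1 passed the filter through the del/del libraries alone. Leaving out the 10 genes and the pathway lists below, the shares were 3.11% and 1.19%. The 10 genes with a match that rose there were Cxcl14, H2-T23, Igtp, Irgm1, Irgm2, Mapk10, Nebl, Trim12a, Trim12c and Trim34a. How these 10 risers passed the filter was not examined. The lists do not hold every interferon-stimulated gene, so these shares are not free of such genes. The shares are a description and were not tested. The median log2 fold change was near 0 with a match (-0.0044) and without one (-0.0055), and the counts rest on male del/del 5, without which 2 genes of the whole table were called higher.

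The cultures of 1 line can be compared directly in lines 1, 2, 3 and 5. In 8 of the 10 genes the del/del culture was higher in all 4 lines, 7 of them among the 8 that passed the filter; 17.9% of all genes that passed did the same. The exceptions were Uba7 and, in line 3, Ube2l6. The size differed between lines, with a median difference over the 10 genes of 0.81 log2 in line 1, 1.87 in line 2, 1.20 in line 3 and 1.74 in line 5.

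Line 1 had the smallest difference of the 4 lines in 7 of the 10 genes. For Usp18 the differences were 1.38 in line 1, 2.55 in line 2, 3.46 in line 3 and 2.72 in line 5. For Ifit3 they were 1.49, 2.88, 3.43 and 3.23 in the same order. Both ends of the line 1 pair contributed: female fl/fl 1 was the highest of the 5 controls in 8 of the 10 genes, and female del/del 1 was the lowest of the 4 del/del libraries in 5. The names of the line 1 libraries and of male fl/fl 7 lack the RNA- prefix that the other 6 carry. The line 1 pair is the only pair without the prefix, so the line and whatever the prefix stands for cannot be told apart. Within the 6 libraries with the prefix the log2 fold changes were 2.91 for Usp18, 2.45 for Isg15, 2.19 for Ifit1 and 1.85 for Rsad2.

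**Figure D3:**
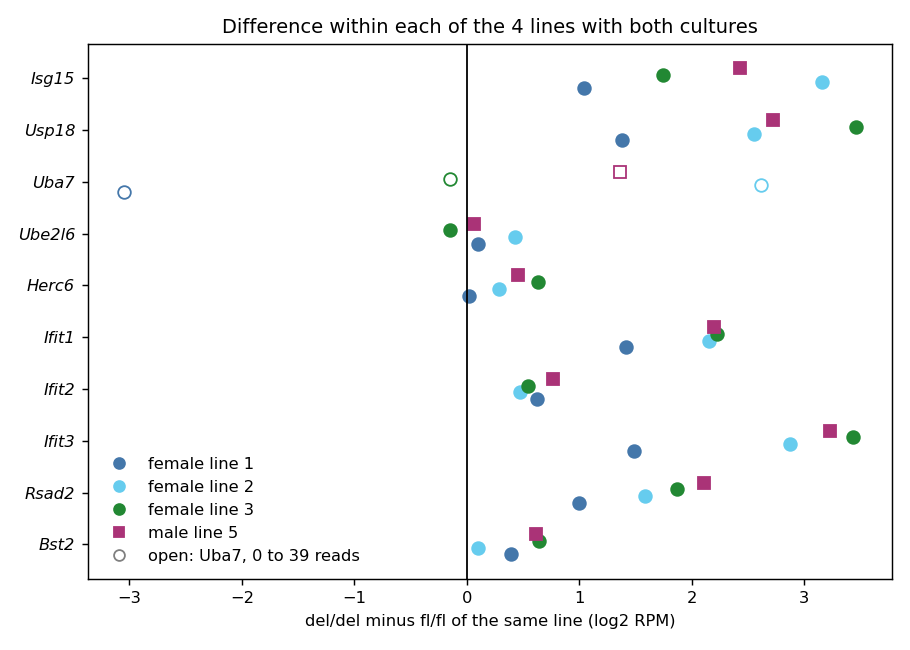
Difference between the del/del and the fl/fl culture of the same line, in log2 RPM, for the 10 genes in female lines 1, 2 and 3 (circles) and male line 5 (squares); open symbols are Uba7, whose reads are few. Line 1 lies nearest to 0 in Isg15, Usp18, Ifit1, Ifit3 and Rsad2, at 1.00 to 1.49.

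Male del/del 5 was the highest del/del library in 7 of the 10 genes. Sex was tested in 1 model of 4 group means. The contrast among the fl/fl libraries is not the one in view when the genes were chosen. The difference of the effect between the sexes is built from the same del/del and fl/fl values, so its counts are a description. Among the fl/fl libraries (3 female, 2 male) 0 of the 8 genes differed between the sexes by limma, against 0.0356% of all genes, and 0 did at an unadjusted p under 0.05 or by voom. The differences of these 8 ran from -0.49 (Isg15, SE 0.67) to 0.36 (Ifit1, SE 0.45) log2, female minus male. The effect of deletion also did not pass the test for a difference between the sexes in any of the 8 genes (limma, 0 at an unadjusted p under 0.05; voom 0, with 1 at an unadjusted p under 0.05; 0% of all genes passed).

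The smallest p for that difference was that of Rsad2, whose effect was smaller in females by 0.87 log2 (SE 0.41, limma unadjusted p = 0.0656, adjusted p = 1.00). The estimate was below 0 in 9 of the 10 genes, while male line 5 had the largest difference of the 4 lines in 2 of them, Ifit2 and Rsad2. All these estimates share a single male del/del library, whose spread is taken from the other groups.

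The effect in females alone is part of the contrast by which the genes were chosen, so its counts are again a description. In females 0 of the 8 genes were past 0.05 by limma (5 at an unadjusted p under 0.05), with higher calls for 0.0142% of all genes. By voom 1 was, with 27 of all 14044 genes called higher. With the line as a block 4 were (all genes 1.87%), and with the block and each library centred on its median 0 were (5 at an unadjusted p under 0.05). The female log2 fold changes were 2.46 (SE 0.47) for Usp18, 1.98 (SE 0.60) for Isg15, 1.93 (SE 0.40) for Ifit1 and 1.48 (SE 0.23) for Rsad2.

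Of a list of 8 partners of the ISG15 system, 1 of the 7 that passed the filter rose and 0 fell, against 1.45% and 0.0997% of all genes. The riser was Trim25, a ubiquitin ligase that can also act on ISG15 and that activates the RNA sensor Ddx58, at 2.01-fold (limma adjusted p = 0.00840, log2 fold change 1.01 with SE 0.14). Stat2, through which Usp18 reaches the receptor, had -0.14 (SE 0.14), the receptor chain Ifnar2 -0.05 (SE 0.12), and Skp2, which targets Usp18 for degradation, -0.30 (SE 0.13). The ligase Arih1 had -0.07, the conjugating enzyme Ube2e1 -0.04 and the Herc6 relative Herc3 0.03. Itgal, the integrin chain that extracellular ISG15 can bind, had at most 21 reads in any library.

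Other interferon-stimulated genes rose in part. Of a list of 58, 56 were in the table and 39 passed the filter. Of the 39, 14 rose and 0 fell by limma, against 1.45% and 0.0997% of all genes. The median log2 fold change was 0.64. Oasl2, Irf7, Ifi44 and Samd9l, among the 14, and Oasl1 and Parp14 passed the filter through the del/del libraries alone. Their passage bears on the count and the median. Trim25 and Stat2 are also among the partners above. The 14 had log2 fold changes of 0.63 to 2.59, and the 25 that did not pass ranged from -0.21 to 2.15. The smallest p-values belonged to Lgals3bp, a secreted glycoprotein (log2 fold change 2.06), Ifi27, a mitochondrial protein (1.95), the RNA sensor Ifih1 (1.37), the oligoadenylate synthetase-like Oasl2 (2.49) and Trim25. The largest belonged to B2m, the light chain of class I molecules (0.00), Gbp3, a guanylate-binding protein (-0.04), and the RNA-editing enzyme Adar (0.04).

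Leaving out male del/del 5, the number that rose was 0 (24 at an unadjusted p under 0.05). It was 7 when female del/del 1 or female del/del 2 was left out, 8 when female fl/fl 3 was, and 7 with quantile normalization. Of all 14044 genes, 2 were called higher without male del/del 5, 61 without female del/del 1 and 50 without female del/del 2. The number was 88 without female fl/fl 3 and 86 with quantile normalization. Without a filter on low values 22 of the 56 genes of the list rose, against 1.07% of all genes. The ISRE core was present in 17 of the 43 genes of this list with a promoter window (39.5%).

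Among the interferon regulatory factors, Irf7, a regulator of interferon genes, rose (limma adjusted p = 0.0231, log2 fold change 1.75 with SE 0.30). Irf7 passed the filter through the del/del libraries alone, which bears on this call. The call also rests on male del/del 5. Without that library 0 of the 39 genes of the interferon list, which holds Irf7, were called, and 2 genes of the whole table were called higher. Irf9 had 0.39 with SE 0.13 (limma adjusted p = 0.242). The 7 interferon genes looked at were at or near 0. Ifnb1, Ifng, Ifne, Ifnl2 and Ifnl3 had 0 reads in all 9 libraries. That allows up to 0.0257 RPM in the deepest library and 0.124 RPM in female fl/fl 2. Ifna4 had 2 reads and Ifnk 1 read over all libraries. Other Ifna genes were not looked at.

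Markers of other cell types were read beside these values. Of 16 microglia and leukocyte markers 5 passed the filter, and 0 of these 5 passed the limma test (1 at an unadjusted p under 0.05); 8 of the 16, Ptprc and Tyrobp among them, had fewer than 10 reads in every library. The summed level of that list was 115 to 127 RPM in del/del and 100 to 133 RPM in fl/fl, most of it from Cx3cr1, whose row overlaps 5 other rows. Cd68 was higher in del/del without overlap, at 2.76 to 3.17 log2 RPM against 1.95 to 2.66 log2 RPM in fl/fl. Csf1r overlapped, at 2.37 to 2.57 log2 RPM in del/del and 2.36 to 2.68 log2 RPM in fl/fl. Of 7 astrocyte markers 3 rose by limma and 0 fell, against 1.45% and 0.0997% of all genes. Gfap, an intermediate filament protein, rose by 4.19-fold (limma adjusted p = 0.0194). The water channel Aqp4 rose by 3.17-fold (limma adjusted p = 0.0231) and the glutamate transporter Slc1a2 by 1.58-fold (limma adjusted p = 0.0318). In females alone none of these 3 passed (limma adjusted p = 0.183, 0.218 and 0.259). Male line 5 had the largest difference of any line in each of the 3. Beside these markers, Isg15 differed by 4.28-fold and Rsad2 by 3.37-fold. The summed level of the 7 was 160 to 204 RPM in del/del against 117 to 170 RPM in fl/fl, most of it from Aldh1l1, Aldoc and Gja1, which did not pass. Endothelial markers summed to 3.81 to 7.95 RPM against 2.61 to 4.47 RPM, with Cdh5 and Cldn5 under 10 reads in every library. Fibroblast markers summed to 17.0 to 30.7 RPM against 9.47 to 17.3 RPM, most of it from Thy1. Lum had 0 reads and Dcn under 10 reads in every library. Col1a1 and Col1a2 had differences of 4.54 and 2.87 log2 in line 2, the largest of any line for each. Col1a2 was lower in the del/del culture in lines 1, 3 and 5, and Col1a1 in line 3. Only 2 of 6 endothelial markers and 1 of 6 fibroblast markers passed the filter; 0 of these passed limma after adjustment, and each had an unadjusted p under 0.05. Neuron markers summed to 191 to 246 RPM against 210 to 418 RPM, and neural stem cell markers to 669 to 900 RPM against 622 to 1279 RPM, with 0 of the 6 and 12 tested passing limma, also at an unadjusted p under 0.05. The part of the astrocyte, endothelial, fibroblast and Cd68 signal in the differences above was not tested.

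The genes whose profile over the 9 libraries came closest to the mean profile of the 8 genes were Vstm2b (root mean square distance 0.165 log2), Ifih1 (0.178), Pkp2 (0.179), Epha7 (0.196), Mapk10 (0.202) and Trim25 (0.204). The median distance of all genes was 0.692. Ifih1 and Trim25 are interferon-stimulated genes, while Vstm2b, a membrane protein gene, Pkp2, of the desmosome, Epha7, an ephrin receptor, and Mapk10, a Jun kinase, are not on the interferon list. Their log2 fold changes were 0.92 to 1.37, a size that follows from how they were picked, since the mean profile itself is higher in every del/del library.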

How the data were processed

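RNA-seq levels of 9 libraries were used. The authors deposited 1 table of log2 RPM per gene and library; TopHat2 2.0.12, edgeR 3.8.2 and the build mm10 are named per the submitters' processing notes, and the counter, annotation release and strand were not given in the sources used here. Values were whole reads times 1 constant per library (at least 99.9961% of genes within 0.05 reads), with 0 reads entered as 0.9, which gave the reads and library sizes. Rows span whole genes; whether intron reads were counted is not given. Groups follow the sample titles; the design text calls all lines female and the controls del/fl.

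Genes reaching a log2 RPM of 0 in 3 or more libraries were fitted with limma 3.58.1 in R 4.3.3 (intensity trend, sex as covariate, two-sided), and p-values were adjusted over all genes by the Benjamini-Hochberg method. The method was run on simulated data with independent noise in each library and no effect of line. That run does not show how the fit behaves with cultures paired by line. Sex contrasts came from a model of 4 group means. P-values measure the spread between these libraries. The members and lists were chosen with earlier results of these data known. Named genes are the members, all measured paralogs and partners, the 5 smallest and 3 largest p of the interferon list, signalling genes with an unadjusted p under 0.05 (1 is not reported here), top markers and the 6 nearest profiles. Of the lists, 11 symbols were not in the table as written and 9 of them were found under an older symbol (RefSeq synonyms).

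Line numbers pair cultures, since each line was divided. Deviations from the group mean of same-line female libraries correlated across genes with r = 0.868, 0.582 and 0.758 in lines 1, 2 and 3, but del/del 2 with fl/fl 3 gave 0.728 and del/del 3 with fl/fl 2 gave 0.494, so the correlations do not separate lines 2 and 3, and the pairing rests on the labels; genes are not independent replicates. Alternatives were the line as a block, other normalizations, log2(RPM + 1), other filters, limma's voom on recovered reads, the library name prefix, no sex term and leaving out each library. Shared words were counted in GENCODE vM21 transcripts.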

Additional observations from a re-analysis of the deposited data

Results flagged for a closer look

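Isg15 in male del/del 5 stood apart from the other del/del libraries: its level was 1.04 log2 RPM, against 0.15 to 0.20 in the 3 female del/del libraries. The gap to the nearest library was 0.949 of the whole range of the 4, above the critical value of 0.829 of Dixon's test. Of 20 groups tested (10 genes in del/del and in fl/fl) this was the only one, and chance gives about 1 in 20.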

How the results depend on the processing

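With male del/del 5 left out, no male culture with the deletion remains. Leaving out each library in turn, the number of the 10 genes past 0.05 over both sexes was 0 to 4 (4 with all libraries) and their median log2 fold change 1.02 to 1.26. The number of other interferon-stimulated genes was 0 to 15 (14 with all). Quantile normalization gave 1 of the 10 genes and 7 of the list, and turned Ube2l6 to -0.045. The stricter filter gave 2 of the 6 genes that passed it, with a median of 0.51, where 136 of all 12870 genes were called higher. With log2(RPM + 1) the median was 0.65, and without a filter 22 of the list rose (all genes 1.07%). With the line as a replicate block, 5 of the genes and 20 of the list were past 0.05, and 0 for the difference between the sexes; in females 4 genes were, against 0 without the block. With the block and median centring the counts were 3, 14 and, in females, 0. In that setting 226 of all 14044 genes were called higher over both sexes and 23 in females. Also in females, log2(RPM + 1) gave 3 and voom 1, where 38 and 27 of all 14044 genes were called higher. The prefix as a covariate gave 1 (44 of 14044 genes), and no filter gave 3 (59 of 25965 genes). Ifit3 and Uba7 are in the fit without a filter alone, and the 2 to 18 fl/fl reads of Ifit3 limit its fold. No sex difference of the effect could be estimated without male del/del 5.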
